A study of Mus musculus with 12 samples.

Results

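Egr1, Egr2, Egr3, Nr4a1, Nr4a2, Nr4a3, Ier2, Zfp36, Btg2 and Dusp1 are 10 genes of the immediate early response, and they are described here in RNA-seq libraries of mouse cardiomyocytes. They were taken by name, as 10 of the 55335 gene identifiers in the deposited count files, and each name matched 1 identifier. Their choice was made with earlier results of these data known. Egr1 to Egr3 encode zinc finger transcription factors, and Nr4a1 to Nr4a3 encode orphan nuclear receptors that bind DNA without a known classical hormone ligand. Ier2 encodes a nuclear protein of the early response, Zfp36 encodes tristetraprolin, which binds AU-rich mRNAs and speeds their decay, Btg2 encodes an antiproliferative protein that recruits the CCR4-NOT deadenylase, and Dusp1 encodes a phosphatase that switches off MAP kinases. Genes of this kind are switched on within minutes of a stimulus by kinase cascades acting on factors already present, such as SRF, ELK and CREB, and their mRNAs are short-lived. In heart muscle they respond to stretch, adrenergic drive and ischaemia, and they also respond to the handling of tissue during cell isolation.

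The study set genotype against diet in cardiomyocytes of male mice, with 3 deposited libraries in each of 4 groups. The labels name the groups ApoE KO HFD, ApoE KO CD, Wt HFD and Wt CD. The ApoE KO animals were B6.129P2-Apoe tm1Unc/J, which carry a disrupted gene for apolipoprotein E in every cell, and the Wt animals were C57BL/6J. HFD is a Western diet rich in fat and cholesterol, CD is standard chow, and each library is labelled with 7 weeks of diet in animals aged 7 to 8 weeks at entry as far as the design text states. The 2 strains come from the same supplier but are separate lines, so that genotype and line cannot be told apart. Wt HFD replicate 3 was left out, which left 11 libraries and 2 in the Wt HFD group. No label states that the replicates were different animals, and the p-values measure only the spread between these libraries.

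Totals ran between 22130323 and 46424614 counts per library, of which 9340449 to 16412505 lay off the mitochondrial genome. Wt HFD replicate 3 held 1347110 counts, and 74.728% of its counts over 2340 pairs of overlapping sense and antisense genes fell on the non-coding partner, against 0.611% to 0.886% in the other libraries. The targeted gene went against its labels on chow. Apoe stood at 6.93 to 25.3 CPM (counts scaled to a common library size by edgeR) in libraries labelled ApoE KO CD and at 2.12 to 3.61 CPM in libraries labelled Wt CD. On the high fat diet it stood at 1.94 to 3.16 CPM in libraries labelled ApoE KO HFD and at 8.44 and 18.9 CPM in those labelled Wt HFD. A count over the whole gene does not separate the disrupted exons, so it checks the labels only in part. Group names below are therefore the labels of the libraries, and each direction between genotypes rests on them. Ventricular cardiomyocyte markers summed to between 84400 and 97800 CPM in the 11 libraries, and the markers of the labelled cell type were thus present in each.

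Promoter sequence was read for elements known from early genes. Windows from RefSeq's promoter table (GRCm38.p6) were read for 7 of the 10 genes, Egr2, Nr4a1, Nr4a2, Nr4a3, Zfp36, Btg2 and Dusp1. In these the 250 bases before the start were searched on both strands. Egr1, Egr3 and Ier2 were not searched, so the counts of genes below say nothing of elements in them. Btg2 is shown because it carries the whole cAMP response element, Nr4a1 because it carries 4 copies of the half-site, and Egr2 because it carries the CArG box bound by SRF. Capitals mark the cAMP response element TGACGTCA or its half-site TGACG, the EGR site GCGNGGGCG and the CArG box, each read on either strand. The windows are chr1:134079156-134079405 on the minus strand for Btg2, chr15:101266596-101266845 on the plus strand for Nr4a1 and chr10:67537619-67537868 on the plus strand for Egr2, printed 5′ to 3′ in the direction of the gene.
Btg2: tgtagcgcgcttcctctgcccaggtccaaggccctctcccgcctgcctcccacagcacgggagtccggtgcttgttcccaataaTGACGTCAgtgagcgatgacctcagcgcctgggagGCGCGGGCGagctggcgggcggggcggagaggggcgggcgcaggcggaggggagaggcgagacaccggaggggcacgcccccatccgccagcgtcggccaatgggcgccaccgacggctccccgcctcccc
Nr4a1: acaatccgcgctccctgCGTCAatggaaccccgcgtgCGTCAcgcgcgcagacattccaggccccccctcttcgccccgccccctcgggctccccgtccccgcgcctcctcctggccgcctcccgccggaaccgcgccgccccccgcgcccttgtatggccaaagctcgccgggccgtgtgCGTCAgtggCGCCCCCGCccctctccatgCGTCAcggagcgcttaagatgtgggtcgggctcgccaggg
Egr2: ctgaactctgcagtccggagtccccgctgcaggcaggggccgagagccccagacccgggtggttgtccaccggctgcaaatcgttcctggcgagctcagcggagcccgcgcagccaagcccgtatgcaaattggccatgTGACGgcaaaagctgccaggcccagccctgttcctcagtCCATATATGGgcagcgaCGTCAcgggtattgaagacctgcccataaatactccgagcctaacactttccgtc
None of these 3 windows overlapped an annotated exon of the 10 genes, and exons of other genes were not checked. In Btg2 the cAMP response element spanned bases -166 to -159 and the EGR site bases -131 to -123, counted back from the start, where the first base before it is -1. In Nr4a1 the half-sites began at -233, -213, -69 and -40, the third of them just before an EGR site that spanned -60 to -52. In Egr2 the CArG box spanned -72 to -63, between half-sites that began at -111 and -55. Over the 7 genes, 6 held the half-site in at least 1 window, against 17.7% of 32817 windows in the table. The 7 genes had 11 windows, among them overlapping windows of Egr2. Counts per gene and shares per window are therefore unlike measures. The half-site is part of the whole element, so the Btg2 and Dusp1 windows count under both, and the whole element stood in a window of these 2 of the 7 genes and in 1.55% of windows. The EGR site stood in a window of 4 of the 7 genes, Nr4a1, Nr4a2, Zfp36 and Btg2, and in 4.7% of windows. The CArG box stood in a window of Egr2 and Zfp36, and in 1.47% of windows. All 250 bases of the Zfp36 window lay within an annotated exon. Neither the NR4A element AAAGGTCA nor the AP-1 site TGANTCA stood in a window of the 7 genes, and they stood in 1.34% and 6.75% of windows. A match describes letters in the window, not binding.

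Levels per length spanned a wide range. On the scale of CPM per kilobase of merged exon (RPKM), the mean over 11 libraries was 21.8 for Btg2, 21.6 for Egr1, 18.9 for Dusp1 and 14.1 for Nr4a1. Ier2 stood at 9.02 RPKM, Zfp36 at 8.99 RPKM and Nr4a3 at 4.14 RPKM. Nr4a2 stood at 0.408 RPKM, Egr3 at 0.34 RPKM and Egr2 at 0.0157 RPKM. Between neighbours in this order, the gap was larger than the sum of their SDs over the 11 libraries only between Zfp36 and Nr4a3, between Nr4a3 and Nr4a2, and between Egr3 and Egr2. Btg2 and Egr1 both stood at percentile 97.0 of the tested protein-coding genes by RPKM, Nr4a2 at percentile 34.2 and Egr3 at percentile 31.5. In each of the 2 families 1 member stood above the others, Egr1 over Egr3 and Egr2, and Nr4a1 over Nr4a3 and Nr4a2.

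Egr2 was near the floor of detection. Its counts were 2, 1 and 2 in libraries labelled ApoE KO HFD, 4, 2 and 0 in ApoE KO CD, 3 and 1 in Wt HFD, and 0, 3 and 1 in Wt CD, which makes 19 counts in all. No group stood apart in them. Egr2 was removed by the filter on low counts, and no fold change is given for it. The other 9 genes passed that filter and were tested.

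**Figure D1:**
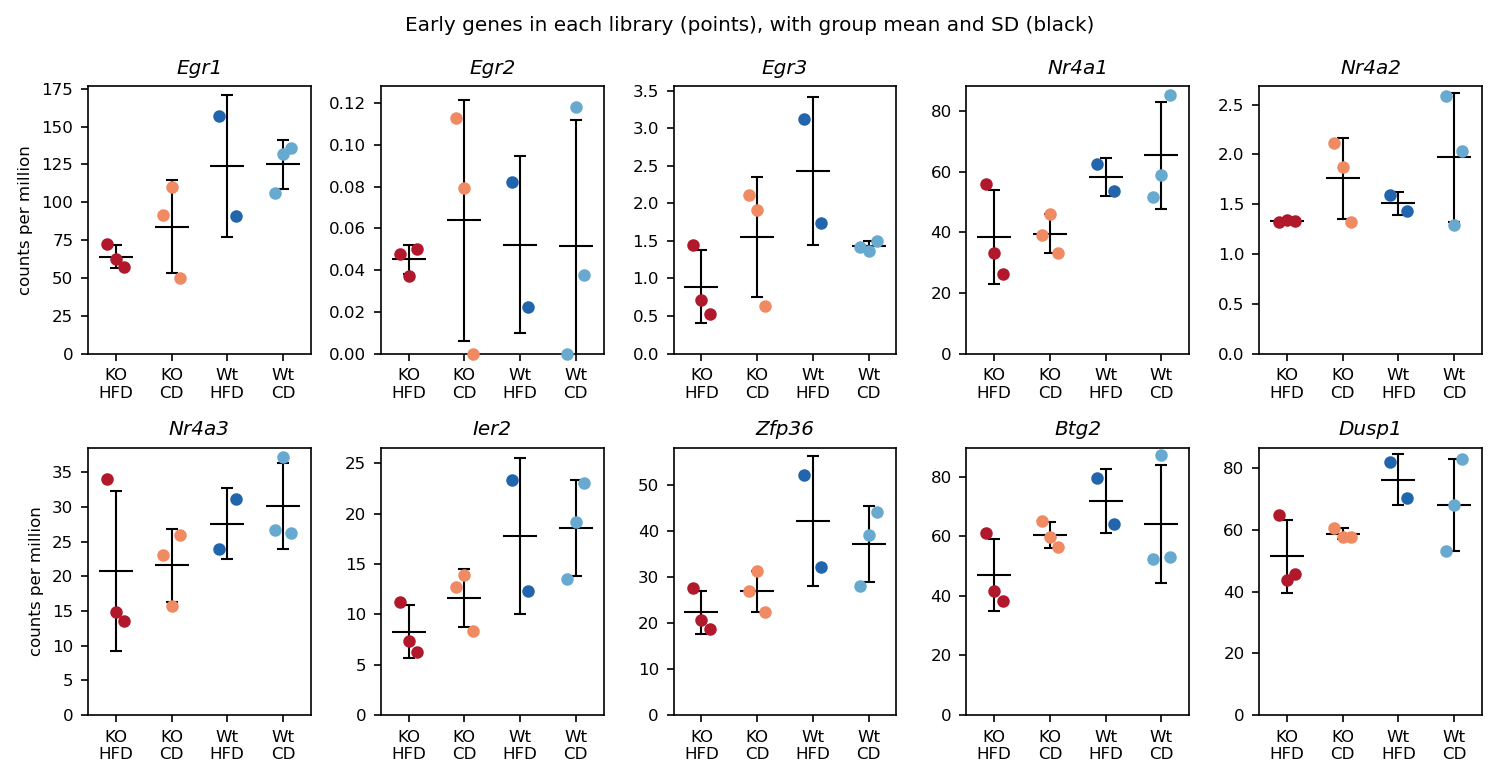
Level in CPM (vertical axis, scaled to each gene) of the 10 genes in 11 libraries. Points are libraries, the black line is the group mean and the whiskers are 1 SD (n = 3, and n = 2 for Wt HFD). Egr1, Ier2 and Zfp36 lie lower in all 3 ApoE KO HFD libraries than in the Wt CD libraries, while most other panels overlap.

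Egr1, the best studied of the zinc finger factors and a sensor of stretch in heart muscle, was among the highest of the 10 genes per length. It stood at 72.2, 62.6 and 57.1 CPM in libraries labelled ApoE KO HFD, 91.5, 110 and 50 CPM in ApoE KO CD, 157 and 90.8 CPM in Wt HFD, and 106, 132 and 136 CPM in Wt CD. Every ApoE KO HFD library lay below every Wt CD and Wt HFD library, and ApoE KO CD spread across that gap. The log2 difference of ApoE KO HFD against Wt CD was -0.96 (SE 0.25), with an adjusted p of 0.146 in edgeR's quasi-likelihood test. The same difference of ApoE KO CD against Wt CD was -0.57 with an adjusted p of 0.284 in edgeR. Neither passed the threshold of 0.05 after Benjamini-Hochberg adjustment over 16932 genes.

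Egr3, a close relative that Egr1 can induce, was low and uneven. It stood at 1.44, 0.709 and 0.526 CPM in libraries labelled ApoE KO HFD, 2.11, 1.91 and 0.632 CPM in ApoE KO CD, 3.12 and 1.74 CPM in Wt HFD, and 1.42, 1.37 and 1.5 CPM in Wt CD. Both Wt HFD libraries lay above the Wt CD libraries and above the ApoE KO HFD libraries, while the ApoE KO CD libraries were spread over the range, with 2 of the 3 above Wt HFD replicate 2 and the other among the lowest. Its counts ran from 19 to 114 per library, and its highest CPM was 5.93 times its lowest, the widest span of the 9 genes. The log2 difference of ApoE KO HFD against Wt HFD was -1.42, with a 95% interval of -2.38 to -0.47 and an adjusted p of 1.0 in edgeR. Against Wt CD the difference of ApoE KO HFD was -0.67 and its interval, -1.58 to 0.24, held 0.

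Among the nuclear receptors, Nr4a1 was the most abundant. It stood at 55.9, 33.2 and 26.1 CPM in libraries labelled ApoE KO HFD, 39.1, 46.1 and 33.3 CPM in ApoE KO CD, 62.6 and 53.7 CPM in Wt HFD, and 51.7, 59.0 and 85.1 CPM in Wt CD. The ApoE KO CD libraries lay below every Wt CD library, whereas ApoE KO HFD replicate 1 reached into the range of both Wt groups. The log2 difference was -0.76 (SE 0.25) for ApoE KO HFD against Wt CD, with an adjusted p of 0.224 in edgeR. For ApoE KO CD against Wt CD it was -0.73 with an adjusted p of 0.182 in edgeR, the smallest of the 9 genes in that comparison.

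Nr4a3, the second of the receptors in level, stood at 34.1, 14.9 and 13.5 CPM in libraries labelled ApoE KO HFD, 23.1, 15.8 and 26.0 CPM in ApoE KO CD, 23.9 and 31.2 CPM in Wt HFD, and 26.7, 37.2 and 26.3 CPM in Wt CD. The ApoE KO HFD group was split, with replicate 1 among the high libraries and the other two the lowest of the 11. Its log2 difference of ApoE KO HFD against Wt CD was -0.52, with an interval of -1.25 to 0.20. Nr4a2, a receptor known mostly from dopamine neurons, stood at 1.32, 1.34 and 1.33 CPM in ApoE KO HFD, 2.11, 1.87 and 1.32 CPM in ApoE KO CD, 1.59 and 1.43 CPM in Wt HFD, and 2.59, 1.29 and 2.03 CPM in Wt CD. Its groups overlapped except that ApoE KO HFD lay below Wt HFD. Its log2 difference of ApoE KO HFD against Wt CD was -0.58, with an interval of -1.20 to 0.04.

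Ier2 had the largest difference of the 9 genes between the ApoE KO HFD and Wt CD groups. It stood at 11.2, 7.39 and 6.24 CPM in libraries labelled ApoE KO HFD, 12.7, 13.9 and 8.37 CPM in ApoE KO CD, 23.3 and 12.3 CPM in Wt HFD, and 13.5, 19.2 and 23.0 CPM in Wt CD. The ApoE KO HFD libraries lay below every library of both Wt groups. The log2 difference against Wt CD was -1.16 (SE 0.29), a level 2.23-fold lower, with an adjusted p of 0.131 in edgeR. Against Wt HFD it was -1.10 with an adjusted p of 1.0 in edgeR.

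Zfp36, on chromosome 7 (28376784 to 28380253, minus strand, GRCm38), stood at 27.6, 20.6 and 18.6 CPM in libraries labelled ApoE KO HFD, 26.9, 31.3 and 22.4 CPM in ApoE KO CD, 52.1 and 32.2 CPM in Wt HFD, and 28.0, 39.2 and 44.1 CPM in Wt CD. The ApoE KO HFD libraries again lay below every Wt library, with replicate 1 only just under Wt CD replicate 1. The log2 difference of ApoE KO HFD was -0.73 (SE 0.21) against Wt CD, with an adjusted p of 0.165 in edgeR, and -0.92 (interval -1.39 to -0.44) against Wt HFD, with an adjusted p of 0.517 in edgeR. Zfp36 lies 8.68 Mb from Apoe, and whether the segment around the targeted locus differs between the lines was not tested. An antisense gene, Gm44710, overlaps its exon and held 223 counts against 11484 for Zfp36 over the 11 libraries.

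Btg2 stood at 61.0, 41.8 and 38.2 CPM in libraries labelled ApoE KO HFD, 65.1, 59.7 and 56.4 CPM in ApoE KO CD, 79.6 and 64.2 CPM in Wt HFD, and 52.4, 87.2 and 53.0 CPM in Wt CD. It overlapped between the ApoE KO HFD and Wt CD groups and lay lower in ApoE KO HFD than in each Wt HFD library. Its log2 difference of ApoE KO HFD was -0.45 against Wt CD and -0.61 against Wt HFD. Dusp1 stood at 65.0, 43.8 and 45.6 CPM in ApoE KO HFD, 60.8, 57.9 and 57.8 CPM in ApoE KO CD, 82.1 and 70.5 CPM in Wt HFD, and 53.2, 68.1 and 82.9 CPM in Wt CD. It varied least of the 9 genes, with an SD of 0.302 on the log2 scale over 11 libraries against a median of 0.365 over the genes tested. Its log2 difference of ApoE KO HFD was -0.40 against Wt CD and -0.57 against Wt HFD. Exons of Ergic1 on the other strand overlap exons of Dusp1, and Ergic1 held 5107 counts against 23399 for Dusp1 over the 11 libraries. The strand setting of the counting is not given in the sources used here.

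Set side by side, the 9 genes lay lower in the libraries labelled ApoE KO HFD than in those labelled Wt CD, by a median of -0.67 on the log2 scale, where the median over the genes tested was -0.01. No member passed the adjusted threshold in this comparison, where 0.154% of the genes tested did. At an unadjusted p under 0.05 in edgeR, 6 of the 9 were lower, Egr1, Nr4a1, Ier2, Zfp36, Btg2 and Dusp1, against 6.58% of the genes tested that were lower by that measure. The groups did not overlap for 3 of the 9, Egr1, Ier2 and Zfp36, against 7.22% of genes. Because the members were chosen with earlier results of these data known, shares over all genes here and below describe them and test nothing. DESeq2 called Egr1, Ier2 and Zfp36 lower, where it called 204 of 16932 genes, 134 of them lower. In contrast, limma voom with sample weights called 0 of the 9 and 33 of 16932 genes. The fit of only these groups called Egr1, with an adjusted p of 0.0391 in edgeR, where 12 of 14110 genes were called. So did the fit without ApoE KO CD replicate 3, with an adjusted p of 0.0469 in edgeR, where 22 of 17057 genes were called. Without ApoE KO HFD replicate 1 the median of the 9 was -1.05, and 8 were lower at an unadjusted p under 0.05 in edgeR. That count was 4 without Wt CD replicate 3, without ApoE KO HFD replicate 2 and without ApoE KO HFD replicate 3. The medians of these 3 fits were -0.591, -0.584 and -0.563. The size of single members also moved with 1 library left out: Nr4a3 lay between -1.08 and -0.30, Egr3 between -1.22 and -0.41 and Btg2 between -0.68 and -0.16. The 0.154% of all genes rests on 26 calls, and that number was 1304 without Wt CD replicate 2 and 0 without ApoE KO HFD replicate 2 or 3. In bulk libraries fewer cells that express a gene and less of its RNA per cell cannot be told apart.

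On the high fat diet the libraries labelled ApoE KO HFD lay lower than those labelled Wt HFD for 9 of 9 genes, by a median of -0.61. edgeR called 0 members, where 0.0472% of genes passed. At an unadjusted p under 0.05 in edgeR, 7 of the 9 were lower, the exceptions being Nr4a2 and Nr4a3, against 1.44% of genes. The groups did not overlap for 7 of the 9, the exceptions being Nr4a1 and Nr4a3, against 10.3% of genes. DESeq2 called 0 members, and limma voom called Dusp1 with an adjusted p of 0.0208, where it called 39 of 16932 genes. The result leans on which Wt HFD library is used: the median was -0.51 without Wt HFD replicate 1 and -0.77 without replicate 2. Each of these fits held 1 Wt HFD library, so only sizes are given. Without ApoE KO HFD replicate 1 the median was -0.97, without ApoE KO HFD replicate 2 it was -0.535, and without ApoE KO HFD replicate 3 it was -0.501. Markers of some other cells lay lower in the same libraries: 8 of 8 endothelial genes with a median of -0.43 and 8 of 8 fibroblast genes with -0.39. So did 9 of 9 tested macrophage genes with -0.51 and 5 of 5 atrial genes with -1.95. Smooth muscle and pericyte genes went both ways, 4 lower and 3 higher, with a median of -0.11. The 2 tested lymphocyte and neutrophil genes lay higher, with a median of 1.01, as did the 1 tested Schwann cell gene at 0.33. The 1 tested erythroid gene was at -0.002. edgeR called 0 of these marker genes, and their part in the result was not tested. This comparison shares its ApoE KO HFD libraries with the one against Wt CD, so that the 2 are not independent.

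On chow, 8 of the 9 genes lay lower in libraries labelled ApoE KO CD than in those labelled Wt CD, with a median of -0.46, and Egr3 lay the other way at 0.10. edgeR called 0 of the 9, where 0.508% of genes passed, and DESeq2 and limma voom called 0 as well. At an unadjusted p under 0.05 in edgeR, 4 were lower, Egr1, Nr4a1, Ier2 and Zfp36, against 7.91% of genes. The groups did not overlap for Nr4a1 and Nr4a3, against 7.67% of genes. The unadjusted count was 0 without Wt CD replicate 3, and it was 1 without Wt CD replicate 2 and 1 without ApoE KO CD replicate 3. The median was -0.29 without ApoE KO CD replicate 2 and -0.30 without ApoE KO CD replicate 3. Endothelial markers lay lower in ApoE KO CD for 8 of 8 genes, with a median of -0.61, and 4 of the 8 had an unadjusted p under 0.05 in edgeR. Atrial markers lay lower for 4 of 5 genes, with a median of -0.71, and macrophage markers higher for 7 of 9, with a median of 0.77. edgeR called 0 of these marker genes, and their part in the result was not tested.

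Diet was set against diet within each genotype label, and whether differences by diet and by genotype label differ in size was not tested. Of the 9 genes, 9 lay lower in ApoE KO HFD than in ApoE KO CD by a median of -0.36, with 0 called by edgeR, DESeq2 or limma voom, where 0.0709% of genes passed in edgeR. At an unadjusted p under 0.05 in edgeR, 0 were lower against 0.78% of genes, and 0 were free of overlap against 3.99% of genes. The unadjusted count was 5 without ApoE KO HFD replicate 1, 3 without ApoE KO CD replicate 3 and 1 without Wt CD replicate 2. The widest interval was that of Egr3, -1.67 to 0.13, and that of Nr4a1, which lay nearest to 0, was -0.57 to 0.49. The median was -0.23 without ApoE KO CD replicate 2. Macrophage markers lay lower in ApoE KO HFD than in ApoE KO CD for 9 of 9 genes, with a median of -1.18, and 4 of the 9 had an unadjusted p under 0.05 in edgeR. Atrial markers lay lower for 4 of 5 genes, with a median of -1.94, and endothelial markers higher for 8 of 8, with a median of 0.31. edgeR called 0 of these marker genes, and their part in the result was not tested.

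In the Wt labels the median difference of Wt HFD against Wt CD was -0.01, with 5 genes lower and 4 higher. edgeR called 0 of the 9, where 0.207% of genes passed, DESeq2 and limma voom called 0, and 0 of the 9 had an unadjusted p under 0.05 in edgeR, where 12.9% of genes did. Without Wt HFD replicate 2, which left only replicate 1 in that group, the median was 0.35, with 3 of the 9 below 0. It was 0.07 without Wt CD replicate 3, with 2 below 0, and 0.06 without Wt CD replicate 2, where 1 gene had an unadjusted p under 0.05 in edgeR. Without Wt HFD replicate 1, which left only replicate 2 in that group, it was -0.16. Egr3 alone was free of overlap, higher in Wt HFD, against 12.8% of genes higher in this way. Its log2 difference was 0.75 with an interval of -0.19 to 1.70. Egr1 was at -0.01 with an interval of -0.60 to 0.59. The test of whether the diet difference depended on the genotype label called 0 members in edgeR, where 0.219% of genes passed, and 0 in DESeq2 and limma voom. It gave an unadjusted p under 0.05 for Egr3 only, lower at -1.52 (SE 0.62, adjusted p of 0.558 in edgeR), against 4.03% of genes lower. That count of 1 was 0 without ApoE KO CD replicate 1 or 2, and without ApoE KO HFD replicate 2 or 3. It was 3 without ApoE KO HFD replicate 1, and 2 without Wt CD replicate 2, Wt CD replicate 3 or ApoE KO CD replicate 3. The median of the 9 in this test was -0.38. With 1 Wt HFD library left, it was -0.10 without Wt HFD replicate 1 and -0.71 without Wt HFD replicate 2.

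**Figure D2:**
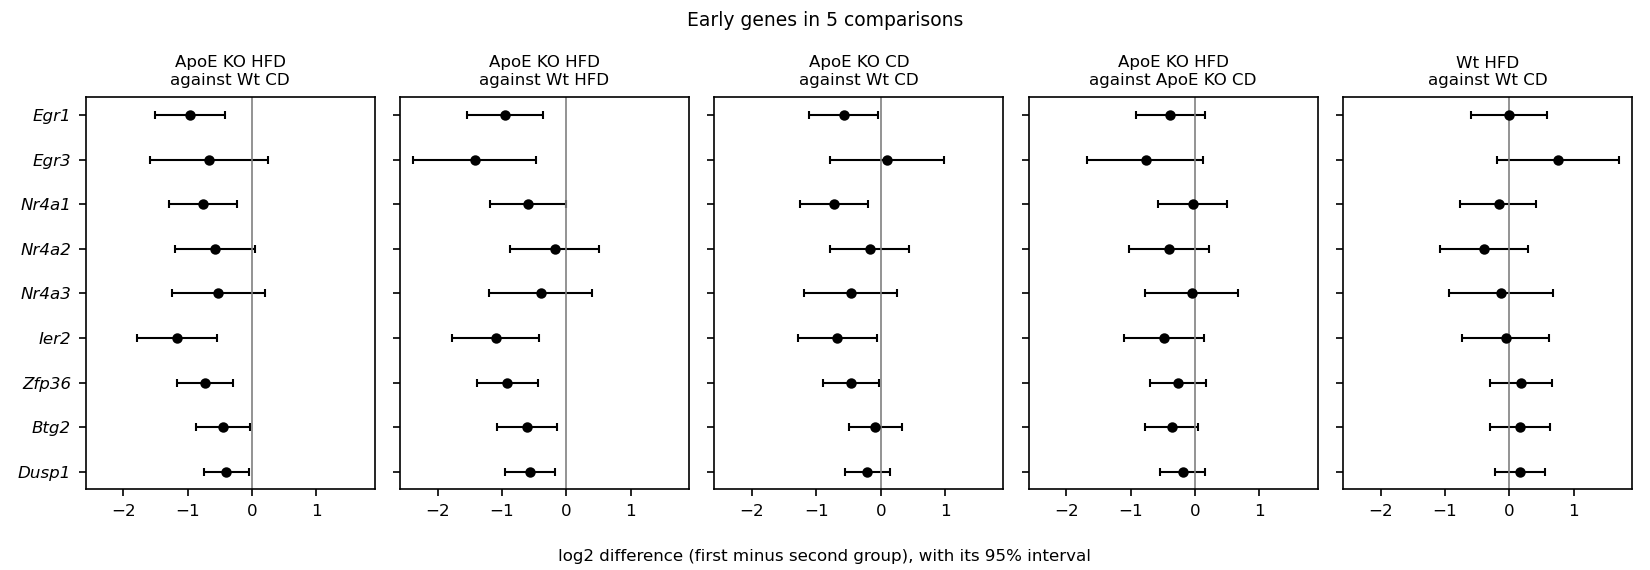
Log2 difference (horizontal axis, first named group minus second) of the 9 tested genes in 5 comparisons, with points for the estimates and bars for their 95% intervals. The intervals of Egr1, Ier2, Zfp36 and Nr4a1 lie below 0 in the first 3 panels and hold 0 in the last 2. The first 3 set an ApoE KO label against a Wt label, and the first of them differs in diet as well. The last 2 set diet against diet. Intervals are not adjusted for the number of genes, and panels share groups. Whether differences by diet and by genotype label differ in size was not tested.

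Some of the 9 genes had like patterns from library to library. With each gene centred on its mean over the 11 libraries, their mean was 0.02, -0.57 and -0.74 on the log2 scale in the 3 libraries labelled ApoE KO HFD, 0.08, 0.06 and -0.41 in ApoE KO CD, 0.55 and 0.14 in Wt HFD, and 0.11, 0.33 and 0.42 in Wt CD. ApoE KO HFD replicate 3 was the lowest library for 6 of the 9 genes, and Wt HFD replicate 1 the highest for 4. Replicates of 1 group were spread. ApoE KO HFD replicate 1 was close to ApoE KO CD replicate 2, ApoE KO CD replicate 1, Wt CD replicate 1 and Wt HFD replicate 2. The tightest pair of members was Egr1 and Ier2, whose centred log2 values differed by a root mean square of 0.191, followed by Ier2 and Zfp36 at 0.198 and Egr1 and Zfp36 at 0.201. Egr3 and Nr4a3 were the least alike at 0.702. Nr4a2 differed from 7 of the 8 others by 0.466 to 0.656, more than its median over the genes compared, 0.423, the exception being Dusp1. Nr4a3 differed from Egr1, Ier2, Nr4a2 and Egr3 by more than its own median of 0.505.

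Markers of other cells were compared library by library. The summed level of 5 atrial cardiomyocyte genes was 83.5, 25.6 and 18.2 CPM in ApoE KO HFD, 121, 113 and 106 CPM in ApoE KO CD, 188 and 7.33 CPM in Wt HFD, and 71.4, 127 and 120 CPM in Wt CD. The 2 ApoE KO HFD libraries lowest in early genes were thus also low in atrial genes, while Wt HFD replicate 2 was lowest in atrial genes with early genes near their mean. An alternative without these 3 libraries was chosen after seeing the data. It left only replicate 1 in ApoE KO HFD and only replicate 1 in Wt HFD, the library with the highest mean of the 9 genes (0.55). The spread between libraries then came from the CD groups alone, so only sizes are given. The median difference of the 9 genes between ApoE KO HFD and Wt CD was -0.23, where the median over the genes tested was -0.11. Between ApoE KO HFD and Wt HFD, 1 library against 1, the median was then -0.40, with 8 of the 9 below 0. It was 0.002 between ApoE KO HFD and ApoE KO CD, with 4 of the 9 below 0, and 0.33 between Wt HFD and Wt CD, with 3 below 0. Between ApoE KO CD and Wt CD, where no library was left out, it was -0.46. Against Wt CD, Egr1 in ApoE KO HFD was then at -0.79 and Ier2 at -0.73, with 1 ApoE KO HFD library, assumed to vary like the other groups. edgeR called 0 of the 5 atrial genes in ApoE KO HFD against Wt CD, where 5 of 5 lay lower with a median of -2.36. Of 8 endothelial genes 7 lay lower, with sums of 66.0 to 96.2 CPM in ApoE KO HFD and 52.9 to 118 CPM in Wt CD. Of 9 tested macrophage genes 9 lay lower, with sums over the 10 listed of 8.55 to 12 CPM in ApoE KO HFD and 10.8 to 20 CPM in Wt CD. No gene of either list was called in edgeR. Fibroblast markers summed to 13.2 to 16.8 CPM in ApoE KO HFD and 9.81 to 17.9 CPM in Wt CD, and smooth muscle and pericyte markers to 45.0 to 53.8 CPM in ApoE KO HFD and 37.2 to 55.0 CPM in Wt CD. Lymphocyte and neutrophil, erythroid, adipocyte and Schwann cell lists each stayed at or under 1.52 CPM in every library, with Nkg7 at 0 in the ApoE KO HFD, Wt HFD and Wt CD groups. The part of other cells in the early gene differences was otherwise not tested.

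**Figure D3:**
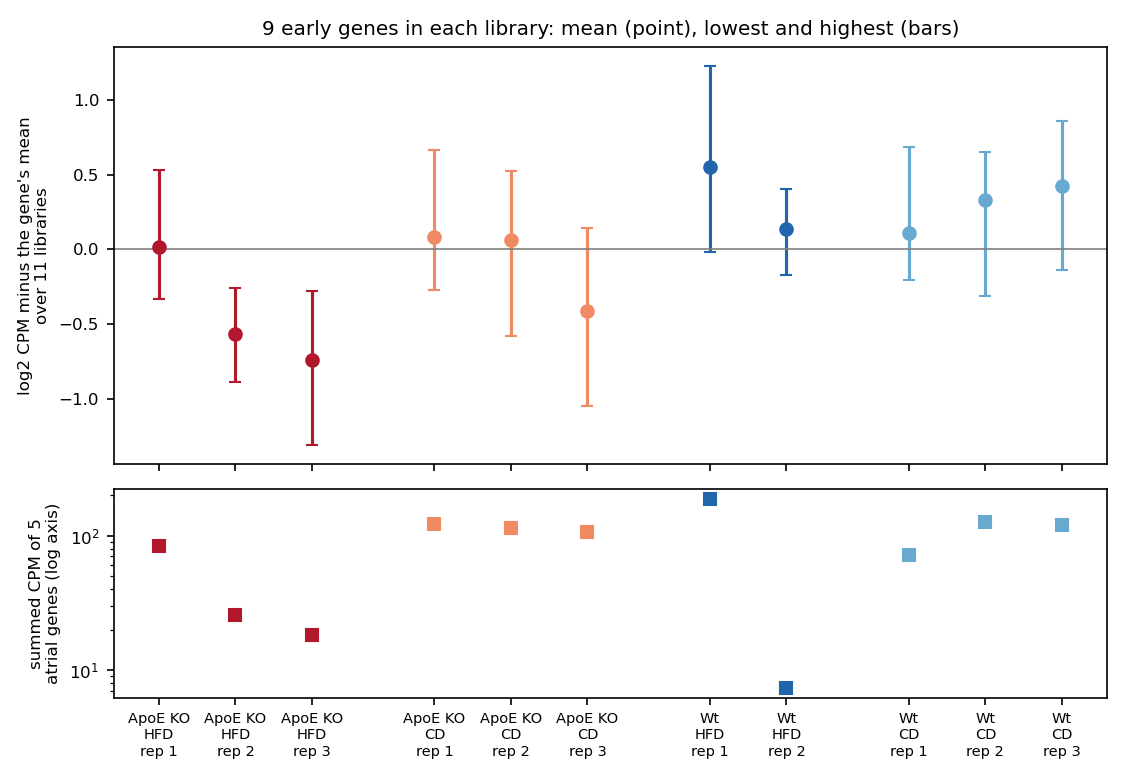
Upper panel, mean of the 9 genes in each of 11 libraries as log2 CPM minus the mean of each gene (points), with the lowest and highest gene (bars). Lower panel, summed CPM of 5 atrial genes on a log axis. ApoE KO HFD replicates 2 and 3 are low in both panels, and Wt HFD replicate 2 is low only in the lower one.

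Other early response genes were counted beside the members. Of 8 AP-1 and ATF3 genes, which encode partners of dimers that bind the AP-1 site, 6 were tested, and 6 of these 6 lay lower in ApoE KO HFD than in Wt CD, with a median of -0.82. The same 6 lay lower in ApoE KO HFD than in Wt HFD, with a median of -0.77, and in ApoE KO CD than in Wt CD, with a median of -0.61, and edgeR called 0 of them in both. Fos, the prototype of the immediate early genes, was the 1 that passed against Wt CD. It stood at 48.0, 50.4 and 47.9 CPM in libraries labelled ApoE KO HFD, 74.3, 57.9 and 44.1 CPM in ApoE KO CD, 104 and 65.5 CPM in Wt HFD, and 81.1, 105 and 112 CPM in Wt CD. It fell by 1.03 on the log2 scale in ApoE KO HFD against Wt CD, with an adjusted p of 0.0367 in edgeR. That call was lost, with adjusted p-values between 0.0637 and 0.202 in edgeR, without Wt CD replicate 3, without ApoE KO CD replicate 2 and without any 1 of the ApoE KO HFD replicates, while the log2 value stayed between -1.16 and -0.93. With the replicate block the adjusted p was 0.061 in edgeR, and it was 0.138 in limma voom. Without the 3 libraries low in atrial genes, which left 1 ApoE KO HFD library, Fos was at -1.06. With all 12 libraries its adjusted p was 0.999 in edgeR.

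Of 33 further early response genes, 32 were tested, and 25 lay lower in ApoE KO HFD than in Wt CD, with a median of -0.46 and 7 above 0. In ApoE KO HFD against Wt HFD 26 of the 32 lay lower, with a median of -0.32 and 0 called by edgeR, and in ApoE KO CD against Wt CD 22 lay lower and 10 higher, with a median of -0.23. Gadd45g, which encodes a stress-induced regulator of MAP kinase signalling and growth arrest, was the 1 that passed. It stood at 10.1, 9.44 and 10.5 CPM in libraries labelled ApoE KO HFD, 12.5, 6.44 and 16.7 CPM in ApoE KO CD, 17.6 and 14.9 CPM in Wt HFD, and 23.8, 26.8 and 25.9 CPM in Wt CD. It fell by 1.35 on the log2 scale in ApoE KO HFD against Wt CD, with an adjusted p of 0.0343 in edgeR, and by 1.09 in ApoE KO CD against Wt CD, with an adjusted p of 0.0415 in edgeR. The first call was lost without Wt CD replicate 1, without Wt CD replicate 3 and without any 1 of the ApoE KO HFD replicates, with adjusted p-values between 0.0534 and 0.2 in edgeR. The second was lost without any 1 library other than Wt CD replicate 2 and ApoE KO CD replicate 3, with adjusted p-values between 0.0532 and 0.141 in edgeR. limma voom gave 0.17 for the first and 0.155 for the second. Without the 3 libraries low in atrial genes, which left 1 ApoE KO HFD library, Gadd45g was at -1.337 in the first and -1.085 in the second. With all 12 libraries the adjusted p in edgeR was 0.999 for the first and 1.0 for the second. The second was also lost in the fit of only the groups compared, with an adjusted p of 0.102 in edgeR.

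No gene of the other pathway lists passed in any of the 6 tests in edgeR. Among 17 tested relatives and corepressors of the 10 genes, the median of ApoE KO HFD against Wt CD was -0.20. The smallest p there belonged to Dusp6, an ERK phosphatase, at -0.64 with an adjusted p of 0.254 in edgeR, and Btg1, a paralogue of Btg2, lay the other way at 0.41 with 0.259. The 27 kinases and transcription factors upstream of early genes had a median of -0.00 and went both ways, with 6 higher and 3 lower at an unadjusted p under 0.05 in edgeR. Mapk7, the kinase ERK5, was at -1.15 with an adjusted p of 0.191 in edgeR, and Mapk9, the kinase JNK2, was at 0.45 with 0.231. Among 11 subunits of the CCR4-NOT deadenylase that Zfp36 and Btg2 recruit, the median was 0.21, and 8 of the 11 lay above 0. Among 10 tested mRNAs known to be bound by tristetraprolin the median was -0.40, with Myc at -1.31 and an adjusted p of 0.0691 in edgeR. The lists share genes and are not independent. Myc, Ier3 and Ptgs2 of this list are also among the further early response genes, as are Egr4 and Ier5 of the relatives. Glucocorticoid-induced genes had a median of -0.21, heat shock genes -0.12 and clock genes 0.08.

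**Figure D4:**
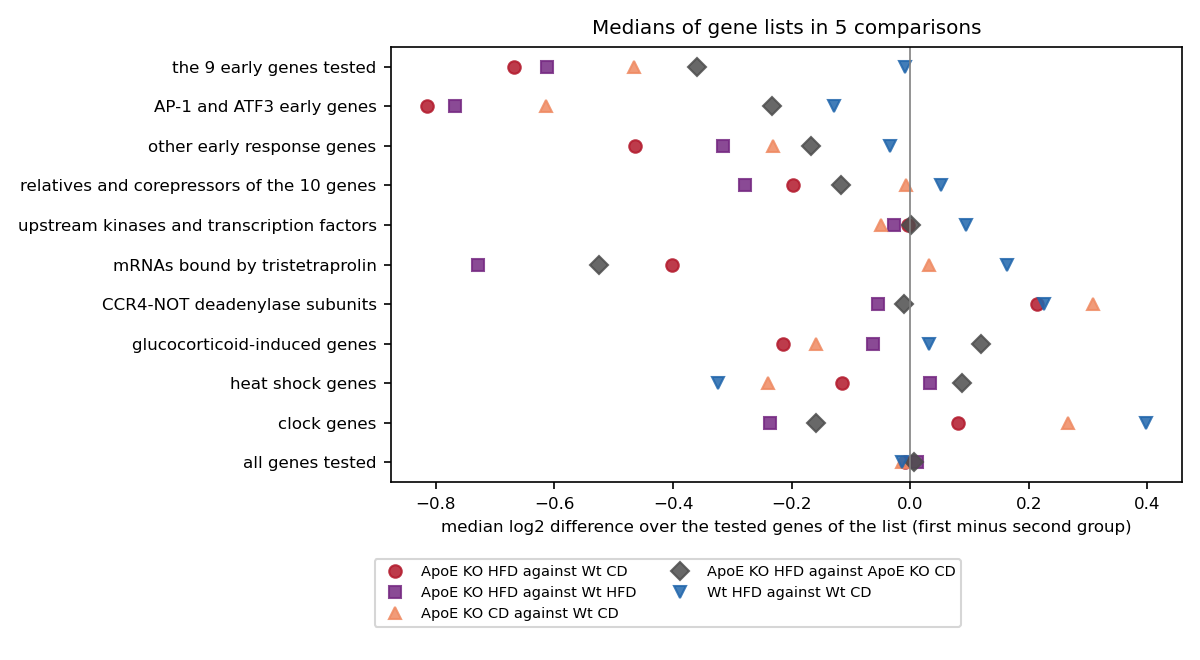
Median log2 difference (horizontal axis, first named group minus second) over the tested genes of each pathway list, in 5 comparisons marked by symbol and colour. Of the lists plotted, which leave out cell markers, the AP-1 list lies lowest in the 3 comparisons of an ApoE KO label with a Wt label and the 9 early genes next to it, except that the mRNAs bound by tristetraprolin lie between them in ApoE KO HFD against Wt HFD. The median of all genes tested lies near 0.

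The genes whose pattern over the 11 libraries was most like each member were sought among 8508 genes, by the root mean square difference of centred log2 CPM. For Egr1 they were Ryr3 at 0.191 and Fos at 0.204, where the median over genes was 0.574. For Ier2 they were Junb at 0.233 and Ryr3 at 0.241, and for Zfp36 Ryr3 at 0.16 and Junb at 0.176. For Nr4a1 they were Sod3 at 0.188 and Midn at 0.21, for Nr4a3 Mrpl14 at 0.25 and Ifrd1 at 0.259, and for Nr4a2 Tmub1 at 0.14 and Ggnbp1 at 0.171. For Btg2 they were Brd2 at 0.173 and Magoh at 0.178, for Dusp1 Cmbl at 0.149 and Jun at 0.15, and for Egr3 Pnmt at 0.366 and Nfkbiz at 0.439. The libraries share their depth and their group differences, and a small difference describes a pattern only.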

How the data were processed

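RNA of cardiomyocytes was prepared with a stranded SMART-Seq kit, per the labels' protocols. The submitters' processing notes name Trimmomatic 0.39, STAR 2.7a, HTSeq 0.13.5 and the mouse build GRCm38/mm10. The deposited files hold raw counts per gene made by the authors, as 1 file a library with 55335 identifiers, of which 55154 matched GENCODE M21. Wt HFD replicate 3 was left out of the tests by the definition of the set of libraries described here. Most of its counts over antisense gene pairs lay on the non-coding partner, and its file header repeats the name of another library.

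The quasi-likelihood test of edgeR 4.0.16 (R 4.3.3) was run on the counts (TMM scaling, its default expression filter, robust quasi-likelihood fit, 1 mean per group, 11 libraries, 16932 genes, 7 residual degrees of freedom), with Benjamini-Hochberg adjustment and a threshold of 0.05. Levels in CPM are scaled to the TMM-adjusted total, and RPKM divides them by merged exon length. Intervals use the standard error and the degrees of freedom of each gene's test. Centred values use a prior count of 0.5. Alternatives were RLE size factors, DESeq2 1.42.0, limma 3.58.1 voom with sample weights, no filter, at least 50 counts in 3 libraries, all 12 libraries, only the groups compared, a replicate block, and each library left out. The script was tested on simulated data. The members and the lists were chosen with earlier results of these data known. Named by rule were the 10 members, up to 4 called genes of each list per comparison, otherwise its smallest p-values, and the 2 genes most like each member with a mean log2 CPM of at least 1. Replicate counts differed by more than sampling noise (chi-square per degree of freedom 24.5 to 189.7), so each library counted once.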

Additional observations from a re-analysis of the deposited data

Results flagged for a closer look

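Wt HFD replicate 3, which was left out of the comparisons, held 74.728% of its counts over antisense gene pairs on the non-coding partner, against 0.611% to 0.886% in the other libraries. It was singled out because this signal lies in a library that the comparisons do not use. Its effect on the 9 genes is given by the fit of all 12 libraries.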

How the results depend on the processing

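No member changed direction while called. The count of the 9 genes called in ApoE KO HFD against Wt CD was 0, and it was 3 with DESeq2, 4 with no filter on low counts and 1 in the fit of only the groups compared. For ApoE KO HFD against Wt HFD it was 0, and it was 3 with no filter, which called 49 of 48951 genes. With limma voom, which called 39 of 16932 genes, it was 1. For ApoE KO CD against Wt CD it was 0, and 3 with no filter, which called 475 of 48951 genes. Without 1 library each it lay between 0 and 1 in ApoE KO HFD against Wt CD and was 0 in the other 5 tests. The causes were not tested. In ApoE KO HFD against Wt CD, 26 genes were called over all genes, 204 by DESeq2 and 296 with no filter, which tested 48951 genes. That count of 26 was 1304 without Wt CD replicate 2, 4 without Wt CD replicate 3, 1 without ApoE KO HFD replicate 1 and 0 without ApoE KO HFD replicate 2 or 3, where 1804 and 1590 genes had an unadjusted p under 0.05 in edgeR, and 0 with all 12 libraries. Without Wt CD replicate 2 it was 1801 in ApoE KO CD against Wt CD (86 with it) and 1019 in Wt HFD against Wt CD (35 with it). Over all 12 libraries 0 of the 9 were called in each of the 6 tests. At an unadjusted p under 0.05 in edgeR, 2 were then lower in ApoE KO HFD against Wt CD (6 with 11 libraries). In ApoE KO HFD against Wt HFD 1 was lower (7 with 11 libraries), and in ApoE KO CD against Wt CD 0 (4 with 11 libraries). The median of ApoE KO HFD against Wt HFD was -0.31 (-0.61 with 11 libraries). That of Wt HFD against Wt CD was -0.34 (-0.01 with 11 libraries). Of 15 pairs of same-numbered libraries from different groups, 1 correlated above 0.1 (range -0.163 to 0.183). Differently numbered pairs were not compared, so these values cannot decide whether replicate numbers pair the libraries. The fit with the replicate block called 0 of the 9 in each of the 6 tests, as did the fit without it. Egr2 is limited by depth, with 0 to 4 counts per library.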
